A study of Mus musculus with 18 samples.

Results

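The 8 liver enzymes described here carry fatty acids into the mitochondrion, oxidize them there and complete a ketone body, and their transcripts were compared between mice with the PP or the LL form of the glucokinase regulatory protein. The genes were chosen by name and not by a limit on their values, but with earlier results of these data known. They were Cpt1a, Cpt2, Acadm, Acadl, Acadvl, Hadha, Hadhb and Bdh1, 8 of the 52230 genes to which transcripts were joined, and all 8 were among the 10938 genes with enough counts to be tested. None of the 8 passed the test for a difference between LL and PP mice of either sex. Bdh1 was higher in females than in males of both genotypes. Acadl counts of every LL mouse lay above those of every PP mouse of the same sex, as for 0.0823% of all tested genes. With the mean length of the transcripts as an offset, neither Bdh1 difference passed the test. The log2 fold change of Acadl by LL genotype in females was then -0.04.

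Long-chain fatty acids cross the inner mitochondrial membrane as carnitine esters. Carnitine palmitoyltransferase 1A, from Cpt1a, makes the ester on the outer membrane and is held back by malonyl-CoA, and the enzyme from Cpt2 turns the ester back into acyl-CoA in the matrix. Acyl-CoA dehydrogenases then start each round of beta-oxidation, the trifunctional protein of Hadha and Hadhb subunits completes it for long chains, and liver turns much of the acetyl-CoA into ketone bodies when carbohydrate is short.

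RNA-sequencing was done on liver from 18 mice of a germline knock-in line on the B6N background, 1 library per mouse, all on standard chow. The mice were homozygous for the proline (PP, the mouse wild-type form) or the leucine (LL) version of GKRP, the Gckr product, in which 1 proline is replaced. There were 4 male PP (MPP), 4 male LL (MLL), 5 female PP (FPP) and 5 female LL (FLL) mice. The labels give ages of 9, 12, 14 and 14 weeks for MPP, 13, 13, 13 and 14 for MLL, 9, 9, 11, 12 and 14 for FPP and 11, 11, 13, 13 and 14 for FLL mice, whereas the series text states 14 weeks. No feeding state at collection was given in the sources used here for these livers, and the knock-in is carried by every cell rather than by hepatocytes alone.

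Libraries held 3794671 to 6613905 estimated counts. Values below are normalized counts, which are gene counts divided by the DESeq2 size factor of the library. The targeted gene does not identify the genotype, as the replacement leaves the transcript in place, and Gckr means were 518 ± 82.2 in MPP, 478 ± 24.6 in MLL (SD, n = 4 each), 611 ± 114 in FPP and 592 ± 60.6 in FLL mice (SD, n = 5 each). All 8 hepatocyte markers were tested, and their summed counts ran from 445905 to 552039 in MPP, from 535442 to 634227 in MLL, from 758693 to 858219 in FPP and from 629727 to 755979 in FLL mice, so that FLL lay below FPP. All 7 Kupffer cell and macrophage markers were also present, summing to between 424 and 1098 in MPP, 379 and 700.03 in MLL, 785 and 978 in FPP and 475 and 758 in FLL mice. The 7 endothelial markers summed to 155 to 301 in MPP, 231 to 299 in MLL, 314 to 661 in FPP and 232 to 465 in FLL mice. The 7 stellate and fibroblast markers, of which 6 were tested, summed to 297 to 599 in MPP, 517 to 844 in MLL, 695 to 948 in FPP and 426 to 923 in FLL mice. FPP thus lay above MPP without overlap for the hepatocyte, endothelial and stellate sums, and FLL overlapped MLL for all 3. The adipocyte markers Adipoq and Lep were at 0 in every library. Of the other lists, 1 of 6 cholangiocyte, 1 of 5 adipocyte and 0 of 6 lymphocyte, 0 of 5 neutrophil and 0 of 5 pancreas acinar markers had enough counts to be tested. In whole liver, fewer cells of a type and less RNA per cell cannot be told apart, and the part of cell makeup in the values of the 8 genes was not tested.

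Fragments of the FLL libraries were shorter than those of the FPP libraries, 292 ± 52.1 against 448 ± 108 bases (SD, n = 5 each, two-sided exact permutation p = 0.0159), and their share of counts on the mitochondrial genome was higher, 12.4% ± 1.34 against 10.2% ± 1.11 (SD, n = 5 each, exact permutation p = 0.0317). In males the fragments measured 407 ± 156 bases for MLL against 518 ± 95.7 for MPP mice (SD, n = 4 each, two-sided exact permutation p = 0.286), and the mitochondrial share was 12.6% ± 3.72 and 9.48% ± 1.00 (SD, n = 4 each, exact permutation p = 0.171). Both properties move with genotype in females. Fits with a transcript length offset or with fragment length as a term are given below beside the calls that they ended.

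Of the 8 genes only Hadha and Hadhb are neighbours. Hadha (ENSMUSG00000025745, chromosome 5, 30323302 to 30360187, minus strand) and Hadhb (ENSMUSG00000059447, chromosome 5, 30359204 to 30389997, plus strand) run in opposite directions from starts that, for their main coding transcripts, are 65 bases apart (build GRCm39). Because the pair encodes the α and β subunits of 1 complex and moved together between mice, the stretch between them with no annotated exon is shown, with a GC box (GGGCGG) in capitals, at chr5:30360188-30360235 on the plus strand:
Hadha-Hadhb: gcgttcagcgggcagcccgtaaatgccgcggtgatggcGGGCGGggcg

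The windows before the starts of Acadl, Cpt2 and Bdh1 are shown because Bdh1 was called between the sexes and because Acadl and Cpt2, although not called, had groups that did not overlap. They were read from the GRCm39 genome on the strand of the gene and end at the base before the first annotated exon. Acadl (ENSMUSG00000026003, chromosome 1, 66868267 to 66902633) encodes long-chain acyl-CoA dehydrogenase, Cpt2 (ENSMUSG00000028607, chromosome 4, 107751473 to 107780812) the inner carnitine palmitoyltransferase, and Bdh1 (ENSMUSG00000046598, chromosome 16, 31241087 to 31277725) beta-hydroxybutyrate dehydrogenase, which interconverts acetoacetate and beta-hydroxybutyrate. The windows are 249 bases at chr1:66902634-66902882 on the minus strand for Acadl, with its CCAAT boxes (CCAAT, either strand) in capitals, 250 bases at chr4:107780813-107781062 on the minus strand for Cpt2, with GC boxes and a STAT5-type element (TTCNNNGAA) in capitals, and 250 bases at chr16:31240837-31241086 on the plus strand for the upstream start of Bdh1:
Acadl: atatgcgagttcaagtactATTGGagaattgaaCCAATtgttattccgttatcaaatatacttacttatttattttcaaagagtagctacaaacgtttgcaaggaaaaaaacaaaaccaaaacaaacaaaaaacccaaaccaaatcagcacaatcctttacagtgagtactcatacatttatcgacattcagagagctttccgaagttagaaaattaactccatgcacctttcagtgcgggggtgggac
Cpt2: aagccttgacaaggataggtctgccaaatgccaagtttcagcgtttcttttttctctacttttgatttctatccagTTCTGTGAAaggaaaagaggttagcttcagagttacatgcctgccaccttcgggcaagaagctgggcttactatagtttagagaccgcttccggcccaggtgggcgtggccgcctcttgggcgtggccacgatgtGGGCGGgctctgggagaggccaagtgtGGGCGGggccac
Bdh1: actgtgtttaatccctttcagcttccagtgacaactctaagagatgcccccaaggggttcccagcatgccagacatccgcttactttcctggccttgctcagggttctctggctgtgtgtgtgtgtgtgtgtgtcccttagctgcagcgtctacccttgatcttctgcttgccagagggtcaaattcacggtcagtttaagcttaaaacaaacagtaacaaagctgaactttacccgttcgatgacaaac

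The other genes are Cpt1a (ENSMUSG00000024900, chromosome 19, 3371853 to 3437996, plus strand), Acadm (ENSMUSG00000062908, chromosome 3, 153627989 to 153650317, minus strand) and Acadvl (ENSMUSG00000018574, chromosome 11, 69900853 to 69906270, minus strand).

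Searched on both strands in 250 bases before the start, Acadl held 2 CCAAT boxes, found in 36.5% of 21757 promoters, and no GC box, found in 36.3%. Cpt2 held 2 GC boxes and 1 TTCNNNGAA element, which 7.70% of promoters hold. Hadhb also held 1 TTCNNNGAA element, and GC boxes were also before Cpt1a, Hadha and Hadhb. The Bdh1 window held none of the motifs searched. The DR1 repeat of the classical PPAR response element, AGGTCA repeated with a single base between, was in 0.0368% of promoters and in none of the windows of the 8 genes, and the single AGGTCA, in 13.1% of promoters, was before Cpt1a, Acadvl and Hadha. A match or its absence describes these letters in this window only.

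Across genes, levels were compared as normalized counts per kb of the leading transcript. Over all 18 mice Acadvl, the very long-chain acyl-CoA dehydrogenase, had 756 ± 53.7 (SD, n = 18), the medium-chain enzyme Acadm 721 ± 131 and Bdh1 693 ± 148. These 3 did not differ beyond their spread, as Acadvl exceeded Acadm in 11 of 18 mice and Acadm exceeded Bdh1 in 10, and which of them led depended on the group. Acadvl led in MPP mice at 759 ± 17.9, and Acadm in MLL mice at 798 ± 176 against 745 ± 90.6 for Acadvl (SD, n = 4 each). Bdh1 at 779.5 ± 58.7 and Acadvl at 778.9 ± 49.6 were level in FPP mice. In FLL mice Bdh1 had 822 ± 102 and Acadm 808 ± 95.6 (SD, n = 5 each). The leads in MLL and FLL mice were smaller than the SD of either gene. Hadha (537 ± 85.9), Hadhb (522 ± 68.1), Acadl (489 ± 84.9) and Cpt1a (451 ± 61.1) came next over all mice, and each gap between neighbours among them was smaller than the larger SD. Cpt2 was lowest at 308 ± 46.7, below Cpt1a in all 18 mice. Bdh1 exceeded Hadha in 17 of 18 mice, but the means were closer in males, 541 against 498 in MPP and 575 against 534 in MLL mice, than in females, 780 against 598 in FPP and 822 against 512 in FLL mice.

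**Figure D1:**
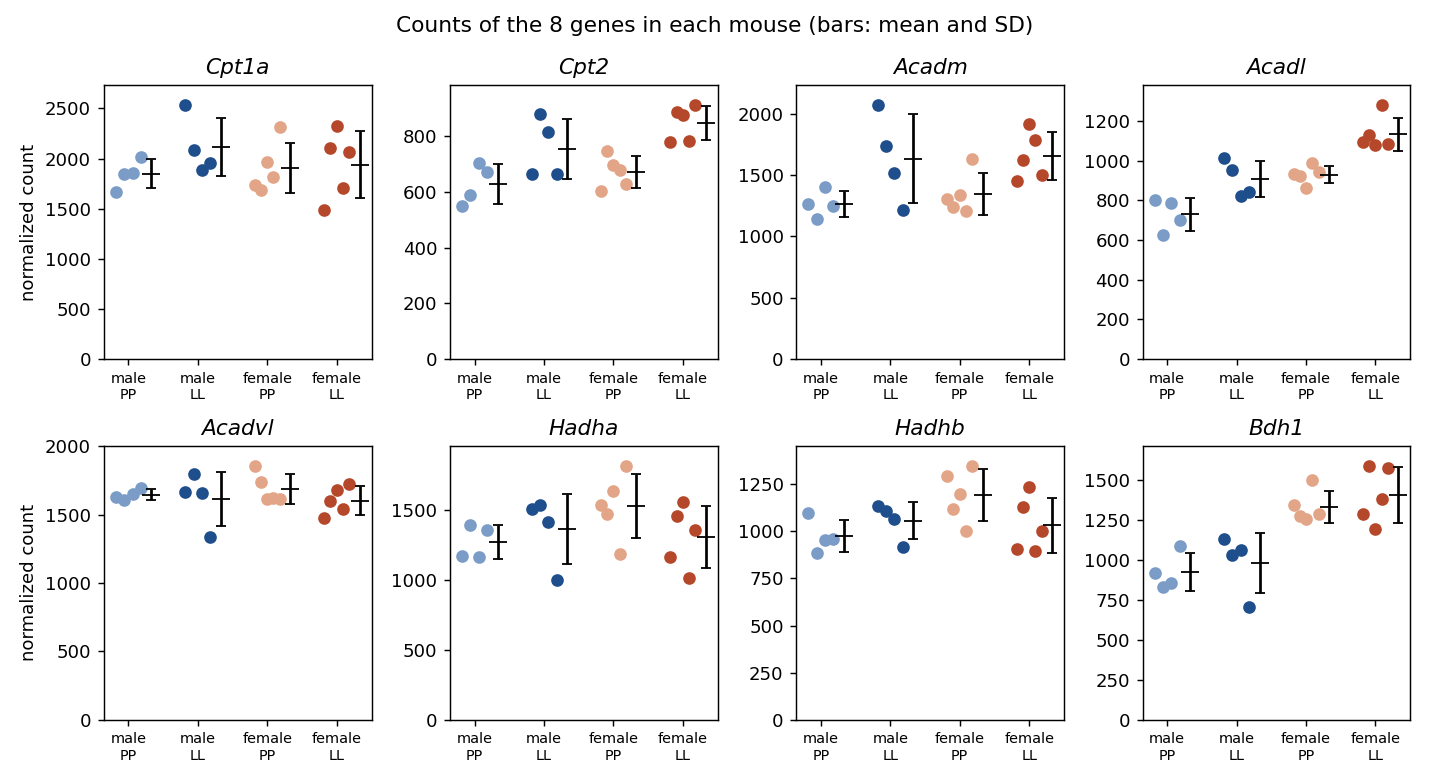
Normalized count (vertical axis, from 0) of each of the 8 genes in every mouse of the 4 groups (horizontal axis), with the mean and SD of each group as a bar beside its points. The Acadl points of LL mice lie above those of PP mice of the same sex, and the Bdh1 points of females lie above those of males.

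The first question was whether the LL genotype went with other levels of these enzymes in males or in females. In MLL against MPP mice 0 of 8 genes were called by DESeq2 (adjusted P below 0.05 and a fold of 1.3 or more, or of 0.7 or less), where 0.283% of all tested genes were. With edgeR it was also 0 of 8, where only 3 of all 10938 genes were called. At an unadjusted DESeq2 p below 0.05 there were 3 of 8 (Acadl, Acadm and Cpt2), against 854 of 10938 genes. In FLL against FPP mice 0 of 8 were called by DESeq2, where 0.658% of all genes were (72, and 28 to 276 when 1 mouse was left out). With edgeR it was again 0 of 8, where only 3 of all 10938 genes were called. Acadl, Acadm and Cpt2 again had an unadjusted DESeq2 p below 0.05, against 1427 of 10938 genes. The median log2 fold change of the 8 was 0.16 in males and 0.05 in females, against 7.51e-05 and 0.01 over all genes.

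Acadl had 803, 626, 786 and 699 normalized counts in the MPP mice and 1012, 953, 823 and 839 in the MLL mice. In females it had 933, 921, 863, 988 and 941 in PP and 1093, 1129, 1077, 1278 and 1084 in LL mice. In both sexes the lowest LL mouse lay above the highest PP mouse. In order of their means came the MPP group (728.5 ± 82.1), the MLL (907 ± 91.1, SD, n = 4 each), the FPP (929 ± 45.1) and the FLL group (1132 ± 84.0, SD, n = 5 each), and the middle pair differed by less than their spread. By LL genotype the log2 fold change came to 0.32 ± 0.10 (SE) in males, with a 95% interval of 0.12 to 0.52 (1.25-fold, DESeq2 adjusted P = 0.110), and 0.28 ± 0.09 in females, with a 95% interval of 0.11 to 0.46 (1.22-fold, DESeq2 adjusted P = 0.0796). Neither passed the test.

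LL groups above PP groups without overlap were found for 1 of 8 genes in males, Acadl, where 1.8% of all tested genes had this, and for 2 of 8 in females, Acadl and Cpt2, where 1.5% had it. No gene of the 8 had LL mice below PP mice without overlap, which 2.27% of all genes showed in males and 1.16% in females. LL mice lay above PP mice without overlap in both sexes at once for 9 of 10938 genes, 0.0823%, Acadl among them. The Acadl estimate in females depended on how length was treated. When the mean length of the transcripts was an offset, the female log2 fold change of Acadl was -0.04 (DESeq2 adjusted P = 0.974) and the male one 0.35 (DESeq2 adjusted P = 0.738), and with fragment length as a term they were 0.19 (DESeq2 adjusted P = 0.712) and 0.25 (DESeq2 adjusted P = 0.530). Over 26 alternatives the adjusted P of Acadl ran from 0.0403 to 0.742 in males and from 0.0367 to 0.974 in females. It was below 0.05 in 1 of 26 in males (0.0403, without MLL 3) and in 3 of 26 in females (0.0367 without FPP 4, 0.0488 without FLL 3 and 0.0494 without the low-count filter), and the fold limit was not reached in any.

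Cpt2 followed the same order in females. It had 605, 748, 697, 680 and 627 normalized counts in FPP and 781, 887, 876, 785 and 912 in FLL mice, which did not overlap. In males it had 549, 590, 703 and 672 in PP and 664, 879, 814 and 665 in LL mice, which did. By LL genotype the log2 fold change came to 0.34 ± 0.11 (SE) in females, with a 95% interval of 0.13 to 0.54 (1.26-fold, DESeq2 adjusted P = 0.0770), and 0.26 ± 0.12 in males, with a 95% interval of 0.03 to 0.50 (DESeq2 adjusted P = 0.346). With fragment length as a term the female value was 0.30 (DESeq2 adjusted P = 0.606), and with the length offset it was 0.23 (DESeq2 adjusted P = 0.860).

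Cpt1a, the regulated entry step, had 1669, 1850, 1858 and 2018 normalized counts in MPP and 2532, 2088, 1888 and 1960 in MLL mice. In females it had 1741, 1688, 1970, 1812 and 2312 in PP and 1487, 2102, 2330, 1708 and 2067 in LL mice, so that the groups of each sex overlapped. By LL genotype its log2 fold change came to 0.19 ± 0.15 (SE) in males (95% interval -0.09 to 0.48, DESeq2 adjusted P = 0.654) and 0.03 ± 0.13 in females (95% interval -0.23 to 0.28, DESeq2 adjusted P = 0.954).

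Acadm starts the oxidation of medium chains. It had 1262, 1144, 1401 and 1250 normalized counts in MPP and 2068, 1735, 1515 and 1214 in MLL mice, the last of which was below 3 of the 4 PP mice. FPP mice had 1308, 1241, 1334, 1204 and 1632 and FLL mice 1448, 1622, 1917, 1786 and 1501, where FPP 5 lay inside the LL range. The log2 fold changes were 0.37 ± 0.15 (SE; DESeq2 adjusted P = 0.291) in males and 0.30 ± 0.13 (DESeq2 adjusted P = 0.261) in females. With the length offset the female value was -0.56 (DESeq2 adjusted P = 0.654).

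Acadvl, which acts on the longest chains at the inner membrane, was the steadiest of the 8 genes in MPP mice, with 1627, 1607, 1654 and 1697 normalized counts, and it had 1663, 1798, 1661 and 1336 in MLL mice. In females it had 1856, 1739, 1617, 1618 and 1614 in PP and 1472, 1597, 1682, 1538 and 1727 in LL mice. The groups overlapped, and the log2 fold changes of -0.03 ± 0.09 (SE; 95% interval -0.21 to 0.16, DESeq2 adjusted P = 0.978) and -0.08 ± 0.08 (95% interval -0.24 to 0.09, DESeq2 adjusted P = 0.726) had the narrowest intervals of the 8 genes in their comparisons. As 32.99% of the 31-base words of Acadvl transcripts also occur in Dvl2, which overlaps it on the opposite strand, its counts are less certain than those of Acadl and Cpt2, which share 0% of their words.

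The trifunctional protein genes had opposite signs in the sexes, except with the length offset, where the male values of -0.25 for Hadha and -0.65 for Hadhb were also below 0. Hadha, the α subunit with the hydratase and dehydrogenase activities, had 1171, 1388, 1162 and 1358 normalized counts in MPP and 1506, 1536, 1408 and 1000 in MLL mice. It had 1529, 1470, 1632, 1186 and 1811 in FPP and 1158, 1455, 1555, 1008 and 1355 in FLL mice. The log2 fold change of the gene was 0.10 ± 0.16 (SE; DESeq2 adjusted P = 0.903) in males and -0.22 ± 0.15 (DESeq2 adjusted P = 0.483) in females.

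Hadhb, the β subunit with the thiolase activity, had 1096, 888, 957 and 961 normalized counts in MPP and 1134, 1107, 1068 and 915 in MLL mice, and 1292, 1117, 1198, 1002 and 1347 in FPP and 906, 1127, 1234, 893 and 1000 in FLL mice. All groups overlapped within a sex for both subunits. The Hadhb log2 fold change stood at 0.12 ± 0.13 (SE; DESeq2 adjusted P = 0.828) in males and -0.21 ± 0.11 (DESeq2 adjusted P = 0.378) in females. The difference of the genotype effects, female less male, was -0.32 ± 0.22 for Hadha (DESeq2 adjusted P = 0.674) and -0.32 ± 0.17 for Hadhb (DESeq2 adjusted P = 0.534), so the opposite signs did not pass the test of the difference.

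Bdh1 had 922, 833, 857 and 1091 normalized counts in MPP and 1131, 1030, 1066 and 707 in MLL mice, and 1346, 1275, 1255, 1503 and 1290 in FPP and 1288, 1590, 1194, 1382 and 1576 in FLL mice. PP and LL mice overlapped in both sexes. By LL genotype the log2 fold change came to 0.09 ± 0.15 (SE; 95% interval -0.20 to 0.37, DESeq2 adjusted P = 0.903) in males and 0.08 ± 0.13 (95% interval -0.18 to 0.33, DESeq2 adjusted P = 0.832) in females.

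**Figure D2:**
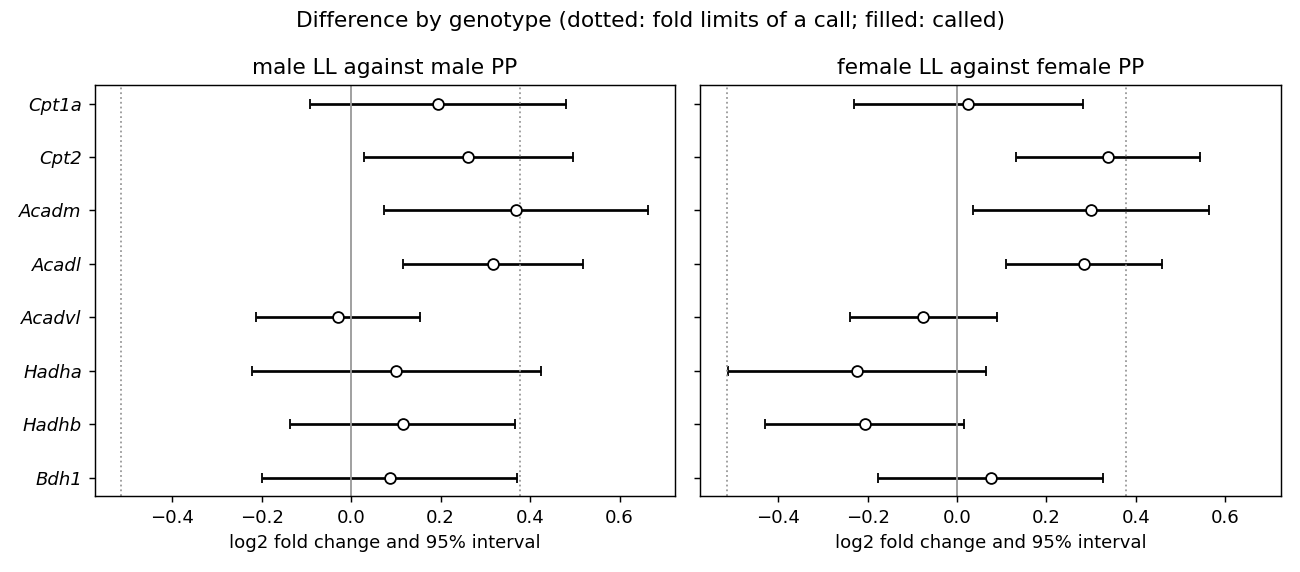
Log2 fold change by LL genotype (horizontal axis) with its 95% interval for the 8 genes (vertical axis), in males on the left and in females on the right, with the fold limits of a call as dotted lines and open circles for genes not called. The intervals of Acadl, Cpt2 and Acadm lie above 0 in both sexes, and no gene is called.

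Whether the genotype effect differed between the sexes was tested directly with the interaction. For 0 of 8 genes was it called by DESeq2, where 0.119% of all genes were. With edgeR it was 0 of 8 too, but edgeR called 0 of all 10938 genes, so its count says nothing about the 8. At an unadjusted DESeq2 p below 0.05 there were 0 of 8, against 620 of 10938. For Acadl the difference was -0.03 ± 0.14 (SE) with a 95% interval of -0.30 to 0.23, for Cpt2 0.08 ± 0.16 (95% interval -0.24 to 0.39) and for Bdh1 -0.01 ± 0.19 (95% interval -0.39 to 0.37).

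The sexes were then compared within each genotype. Between FPP and MPP mice 1 of 8 genes was called higher in females by DESeq2, where 3.68% of all genes were higher and 6.45% were called in either direction. Between FLL and MLL mice it was again 1 of 8, where 3.33% were higher and 6.12% were called. The called gene was Bdh1 in both. Its female values of 1255 to 1503 in PP mice and 1194 to 1590 in LL mice lay above the male values of 833 to 1091 and 707 to 1131. The log2 fold change of the gene was 0.53 ± 0.14 (SE; 1.44-fold, DESeq2 adjusted P = 0.00340) in PP and 0.52 ± 0.14 (1.43-fold, DESeq2 adjusted P = 0.00580) in LL mice.

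The Bdh1 call was kept with edgeR (edgeR adjusted P = 0.0307 and 0.0414) and lost with the transcript length offset, where the log2 fold change stood at 0.35 in PP (DESeq2 adjusted P = 0.160) and 0.16 in LL mice (DESeq2 adjusted P = 0.646). Once fragment length entered as a term it was 0.44 in LL mice (DESeq2 adjusted P = 0.0568). MLL 4 had the lowest Bdh1 count of all 18 mice, and without it the log2 fold change in LL mice was 0.38 (DESeq2 adjusted P = 0.0308). Gm15743, a long noncoding RNA gene on the opposite strand, overlaps Bdh1, and 12.3% of the 31-base words of Bdh1 transcripts occur in other genes.

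Acadl also lay higher in every female than in every male of the same genotype. It and Bdh1 were the 2 of 8 genes whose females lay above males without overlap, which 5.21% of all genes showed in PP and 3.64% in LL mice, and 1.32% in both genotypes. None of the 8 had females below males without overlap, which 4.53% of all genes showed in PP and 4.53% in LL mice. For Acadl the log2 fold change stood at 0.35 ± 0.10 (SE; 1.28-fold, DESeq2 adjusted P = 0.00615) in PP and 0.32 ± 0.10 (1.25-fold, DESeq2 adjusted P = 0.0176) in LL mice, both under the fold limit of a call. The limit was passed in PP mice without FPP 3, MPP 1 or MPP 3, at 0.38 to 0.40. Without the fold limit, 3.73% of all genes were higher in FPP and 3.4% in FLL mice at an adjusted P below 0.05. The edgeR adjusted P of Acadl was 0.0557 in PP and 0.0868 in LL mice, and without MPP 2 the DESeq2 adjusted P in PP mice was 0.0638. In LL mice it was 0.0709 without FLL 4, 0.0871 without MLL 3 and 0.0824 without MLL 4. With the length offset the Acadl values were 0.34 (DESeq2 adjusted P = 0.454) in PP and -0.05 (DESeq2 adjusted P = 0.949) in LL mice. With fragment length as a term they were 0.31 (DESeq2 adjusted P = 0.0211) and 0.25 (DESeq2 adjusted P = 0.127). The adjusted P of Acadl was below 0.05 in 23 of 26 alternatives in PP and 18 of 26 in LL mice.

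The other 6 genes were not called between the sexes. In PP mice all 8 genes had a log2 fold change above 0, against 5447 of all 10938 genes, with a median of 0.18. In LL mice 4 of 8 did, against 5631 of all 10938 genes, with a median of 0.005. Hadhb was nearest to a call, at 0.29 ± 0.12 (SE; DESeq2 adjusted P = 0.143) in PP against -0.03 ± 0.12 (DESeq2 adjusted P = 0.927) in LL mice. Hadha was at 0.26 ± 0.16 (DESeq2 adjusted P = 0.399) and -0.06 ± 0.16 (DESeq2 adjusted P = 0.886). With the length offset Hadha was called in PP mice, at 0.63 (DESeq2 adjusted P = 0.0492). The 2 comparisons by sex share no library with each other but each shares its libraries with the comparisons by genotype.

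**Figure D3:**
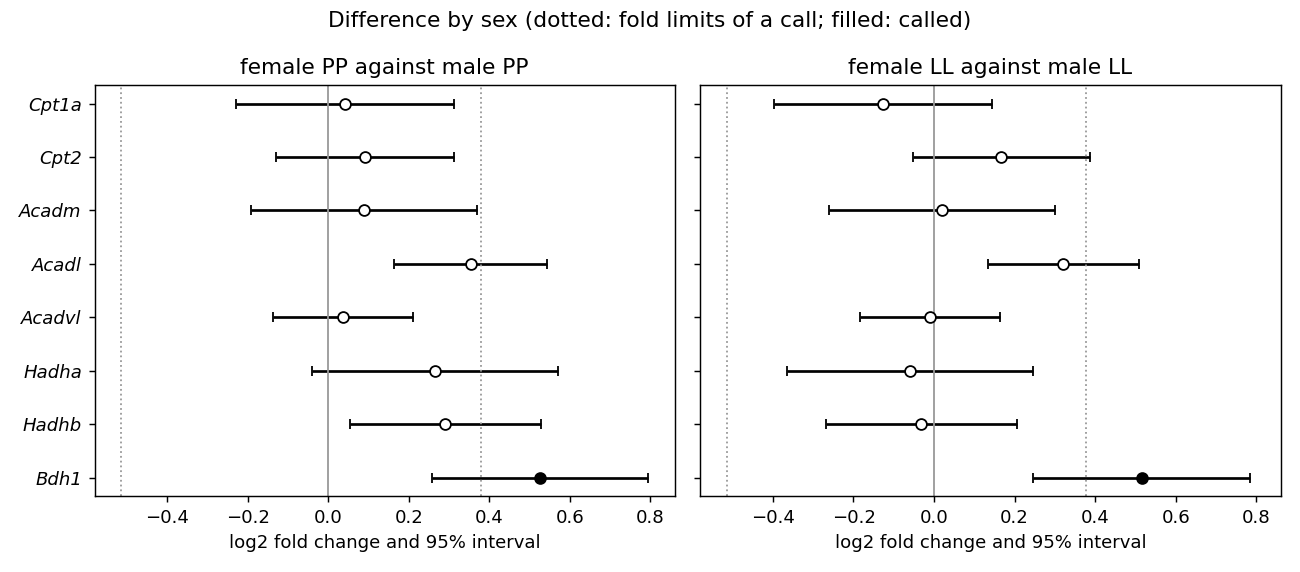
Log2 fold change of females against males (horizontal axis) with its 95% interval for the 8 genes (vertical axis), in PP mice on the left and in LL mice on the right, with the fold limits of a call as dotted lines, filled circles for called genes and open circles for the others. Bdh1 is the gene called in both panels, and the Acadl estimate lies just inside the upper limit.

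Mice of one group differed in several of the genes at once. MLL 4 was the lowest of its group in 5 of 8 genes (Acadm, Acadvl, Hadha, Hadhb and Bdh1), and MLL 1 the highest in 5 of 8. MPP 2 was the lowest of its group in 5 of 8, and FPP 5 and FLL 3 were each the highest in the same 4 (Cpt1a, Acadm, Hadha and Hadhb). MLL 1 had the highest mitochondrial share of counts, 17.9%, and its part in these values was not tested.

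Deviations from the group mean on the log2(normalized count + 1) scale were correlated for all 28 pairs of the 8 genes over 18 mice. The points share the size factor and depth of their library. The Pearson r ranged from -0.26 to 0.76 with a median of 0.31, and 26 of 28 were above 0. The highest was that of the 2 trifunctional protein subunits, Hadha and Hadhb, at r = 0.76 (permutation p = 0.00151, adjusted over 28 pairs 0.0423) with a Spearman rho of 0.74 (permutation p = 0.0032, adjusted 0.0477, mice permuted within groups). Without the 2 mice farthest from the Hadha median r was 0.68. For Cpt1a with Hadha r was 0.67 (permutation p = 0.0123, adjusted 0.0909) and rho 0.76 (permutation p = 0.00341, adjusted 0.0477). The lowest r was that of Acadl with Hadha at -0.26 (permutation p = 0.344, adjusted 0.567), and Acadl had its highest with Acadm at 0.53 (permutation p = 0.0434, adjusted 0.152).

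The ratio of Hadhb to Hadha normalized counts was 0.777 ± 0.131 in MPP, 0.787 ± 0.0870 in MLL (SD, n = 4 each), 0.786 ± 0.0548 in FPP and 0.795 ± 0.0550 in FLL mice (SD, n = 5 each). It ranged from 0.639 in MPP 2 to 0.936 in MPP 1, so that group means were closer to each other than mice within a group. The genes overlap on opposite strands by 984 bases, and the strand setting of the counting is not given in the sources used here, so reads from the overlap cannot be told apart. Of their 31-base words, 22.3% for Hadha and 23.7% for Hadhb also occur in other genes, mostly in Garem2 and the pseudogene Hadhb-ps.

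**Figure D4:**
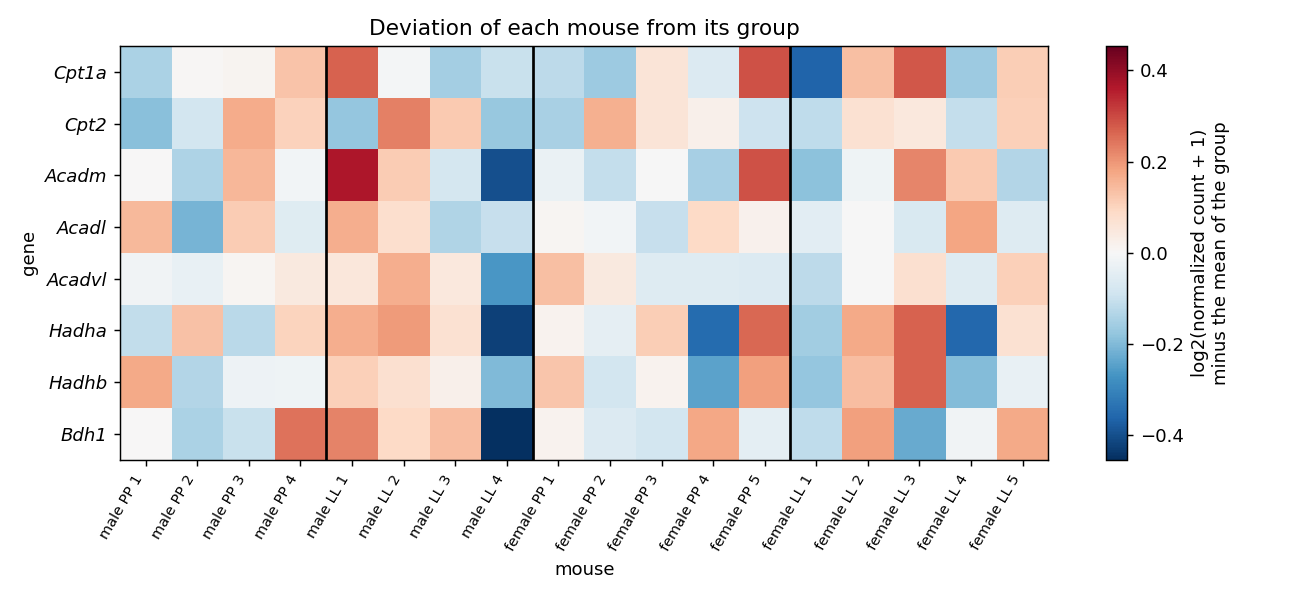
Deviation of each mouse (horizontal axis, with lines between the 4 groups) from its group mean on the log2(normalized count + 1) scale for the 8 genes (vertical axis), with higher values in red and lower in blue. MLL 4 is below its group in all 8 genes, and Hadha and Hadhb share most of their pattern.

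Among all other tested genes, those whose deviations were most like the mean standardized deviation of the 8 were Hsd17b4 (r = 0.91 over 18 mice), Ugt3a2 (0.87), Pex11a (0.85), Hsdl2 (0.85) and Acot1 (0.85).

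Most of the genes were read as 1 transcript, the leading one holding 99.5% of the counts of Cpt1a, 92.1% of Acadm, 90.4% of Acadvl and 90.3% of Acadl. Bdh1 was split between a transcript from the upstream start at 31241087 (48.0% of counts), whose window is shown above, and transcripts from downstream starts at 31247566 (34.4%) and 31248117 (12.0%). The normalized counts of the upstream transcript were 404 ± 127 in MPP, 415 ± 141 in MLL (SD, n = 4 each), 696 ± 153 in FPP and 736 ± 134 in FLL mice (SD, n = 5 each). Those of the transcript from 31247566 were 249 ± 16.0 in MPP, 355 ± 105 in MLL (SD, n = 4 each), 419 ± 56.7 in FPP and 591 ± 101 in FLL mice (SD, n = 5 each). The female means were thus above the male means of the same genotype for the transcripts from 31241087 and 31247566. For the transcript from 31248117 the female means were below the male means, by less than the SD of the male groups. Its normalized counts were 197 ± 146 in MPP and 154 ± 145 in MLL mice (SD, n = 4 each). In females they were 145 ± 156 in PP and 55.9 ± 94.3 in LL mice (SD, n = 5 each).

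The share of Bdh1 on the transcript from 31247566 was 29.1% to 33.7% in FPP and 35.9% to 47.7% in FLL mice, and 21.5% to 29.6% in MPP and 29.3% to 40.7% in MLL mice. The share was picked out after its values were seen and was not tested, and Salmon divides reads between these transcripts by a model, since they end at the same place. The fragment lengths of FLL libraries, given above, were shorter as well. The leading Hadha transcript, with 77.1% of counts, has no defined coding sequence in the annotation. For Hadhb the division between its 2 main coding transcripts was unstable, as the leading one held from 0% to 90.1% in FLL mice.

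Of 27 other genes of the pathway 26 were tested, and none was called by genotype. DESeq2 called 0 of 26 in males and 0 in females, where 0.283% and 0.658% of all genes were called. With edgeR it was also 0 in each sex, where only 3 of all 10938 genes were called in each. At an unadjusted p below 0.05 there were 3 and 6 of 26, against 854 and 1427 of all 10938 genes. The median log2 fold change stood at 0.14 in males and 0.12 in females.

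Between the sexes 2 of the 26 pathway genes were called in PP mice, both higher in females, where 6.45% of all genes were called and 3.68% were higher. Crat, the carnitine acetyltransferase, had 93.4 to 207 normalized counts in MPP and 216 to 358 in FPP mice (log2 fold change 1.082 ± 0.25, SE, DESeq2 adjusted P = 7.62e-04). Slc16a1, a monocarboxylate transporter that carries lactate and ketone bodies, had 97.6 to 145 and 186 to 290 (0.79 ± 0.22, DESeq2 adjusted P = 0.00711). In LL mice 2 of 26 were called, again higher in females, where 6.12% of all genes were called and 3.33% were higher. They were Eci1, an enoyl-CoA isomerase (0.52 ± 0.18, DESeq2 adjusted P = 0.0439), and Hadh, the short-chain hydroxyacyl-CoA dehydrogenase (0.46 ± 0.14, DESeq2 adjusted P = 0.0181). In the other genotype these genes were not called, with Crat at 0.60 ± 0.25 (DESeq2 adjusted P = 0.131) and Slc16a1 at 0.36 ± 0.22 (DESeq2 adjusted P = 0.353) in LL mice, and Eci1 at 0.19 ± 0.18 (DESeq2 adjusted P = 0.669) and Hadh at 0.30 ± 0.14 (DESeq2 adjusted P = 0.201) in PP mice. With edgeR, Crat and Slc16a1 were called in PP mice, where 573 of all 10938 genes were, and 0 of 26 in LL mice, where 468 were. The Crat call was lost with the length offset (DESeq2 adjusted P = 0.104) and the Slc16a1 call without MPP 2 (DESeq2 adjusted P = 0.0623). Eci1 was called in 6 of 26 alternatives, and not with the length offset (DESeq2 adjusted P = 0.812) or fragment length as a term (DESeq2 adjusted P = 0.212). Hadh was called in 18 of 26. Its call was lost with the length offset (DESeq2 adjusted P = 0.0975), fragment length as a term (DESeq2 adjusted P = 0.128), the replicate block (DESeq2 adjusted P = 0.105), the compared groups alone (DESeq2 adjusted P = 0.0764) and edgeR, and without FLL 4, FLL 5 or MLL 4. Acaa2, the thiolase with the highest TPM of the beta-oxidation list, had 4024 ± 274 in MPP and 5075 ± 450 in FPP mice, which did not pass the test (0.33 ± 0.13, DESeq2 adjusted P = 0.0885). The median over the 26 genes was 0.18 in PP and 0.20 in LL mice, against -0.002 and 0.01 over all tested genes.

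Etfb, an electron acceptor subunit for the dehydrogenases, and Slc25a20, the carnitine carrier, led their lists by TPM and were called in no comparison. The log2 fold changes by LL genotype were -0.08 ± 0.22 (SE; DESeq2 adjusted P = 0.967) in males and 0.30 ± 0.19 (DESeq2 adjusted P = 0.479) in females for Etfb, and 0.21 ± 0.15 (DESeq2 adjusted P = 0.646) and 0.27 ± 0.13 (DESeq2 adjusted P = 0.319) for Slc25a20.

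Among 16 tested regulators of 17 listed, 0 were called by genotype with DESeq2 in either sex, where 0.283% of all genes were called in males and 0.658% in females. With edgeR it was also 0, where only 3 of all 10938 genes were called in each sex. At an unadjusted p below 0.05 there were 1 of 16 in males and 6 of 16 in females, against 854 and 1427 of all 10938 genes. Ppara, the nuclear receptor that drives many of these genes in fasting, had 138 to 277 normalized counts in MPP, 95.9 to 213 in MLL, 133 to 594 in FPP and 80.2 to 212 in FLL mice. By LL genotype its log2 fold change came to -0.37 ± 0.48 (SE; DESeq2 adjusted P = 0.864) in males and -0.85 ± 0.43 (DESeq2 adjusted P = 0.326) in females. Creb3l3, the regulator with the highest TPM, had 1162 ± 89.6 in MPP and 1084 ± 179 in MLL (SD, n = 4 each), and 1224 ± 118 in FPP and 1169 ± 157 in FLL mice (SD, n = 5 each).

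Of the 16 tested regulators 2 were called between the sexes in PP mice, where 6.45% of all genes were called. In LL mice it was 1 of 16, where 6.12% of all genes were called. The 2 acetyl-CoA carboxylases, whose product malonyl-CoA holds back Cpt1a, were higher in FPP than in MPP mice. Acaca had 163 to 269 normalized counts in MPP and 373 to 480 in FPP mice (log2 fold change 1.06 ± 0.18, SE, DESeq2 adjusted P = 5.45e-07), and Acacb 88.0 to 122 and 228 to 411 (1.45 ± 0.26, DESeq2 adjusted P = 2.56e-06). In LL mice neither was called between the sexes, with Acaca at 0.26 ± 0.18 (DESeq2 adjusted P = 0.441) and Acacb at 0.70 ± 0.26 (DESeq2 adjusted P = 0.0829). Lpin1, a phosphatidate phosphatase that also acts with PPARα, was lower in FLL than in MLL mice, 76.5 to 150 against 157 to 324 (-1.13 ± 0.29, DESeq2 adjusted P = 0.00438), and in PP mice it was not called (-0.68 ± 0.29, DESeq2 adjusted P = 0.156). All 3 were also called by edgeR, and the Lpin1 call was lost with the length offset (DESeq2 adjusted P = 0.0702).

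**Figure D5:**
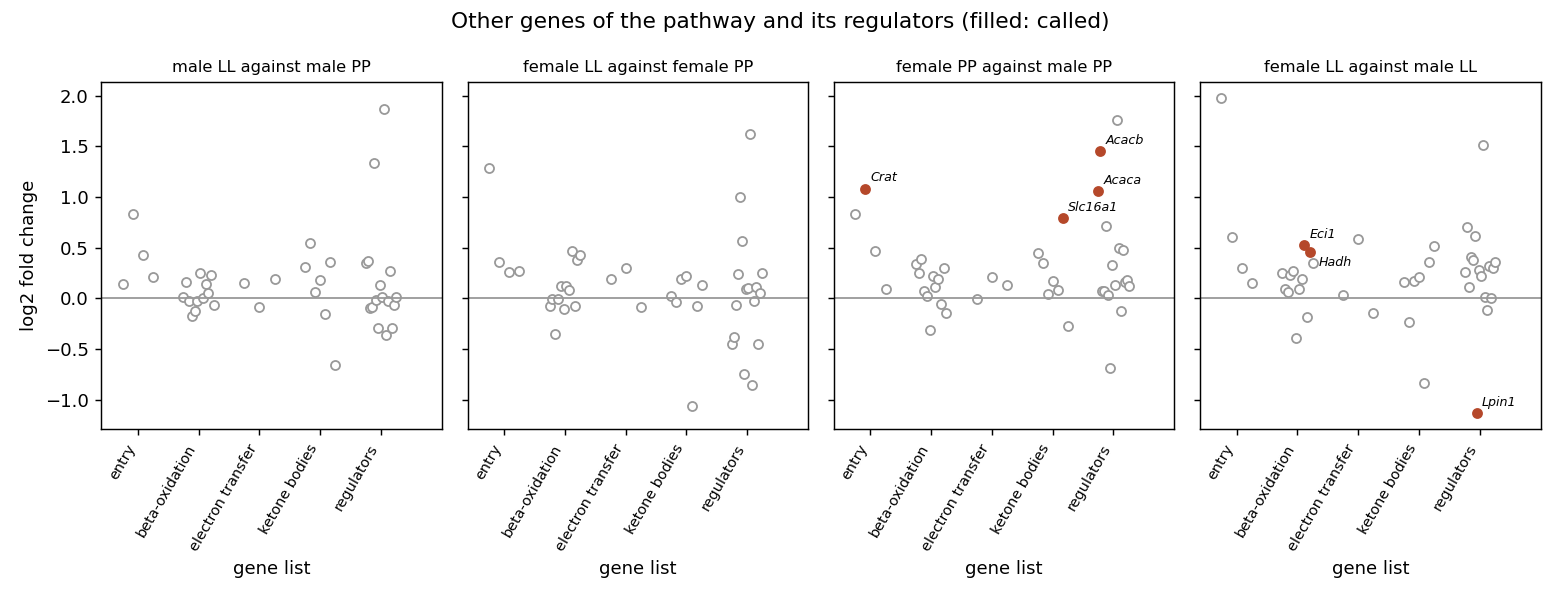
Log2 fold change (vertical axis) of each tested gene of 4 pathway lists and of the list of regulators (horizontal axis) in the comparisons by genotype and by sex, 1 panel each, with called genes filled and named and the others open. No gene is called by genotype, and the called genes between the sexes are Crat, Slc16a1, Acaca, Acacb, Eci1, Hadh and Lpin1.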

How the data were processed

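The authors extracted RNA from 18 mouse livers with Trizol and columns, and assigned the reads, checked with FastQC and untrimmed, to GENCODE M26 transcripts (GRCm39) with Salmon (version 1.4.0 and the build per the labels, the rest per the study's methods). The deposited tables give estimated counts, which are not scaled between libraries, and TPM, which the authors' Salmon run scaled to a fixed total. Estimated counts were joined to genes with GENCODE M39 (99.76% or more of the counts of each library), summed, and rounded. Genes with at least 10 counts in 4 or more libraries (10938) were tested with DESeq2 1.42.0, the tool of the study's methods, in 1 fit of all 18 libraries, with adjustment over all genes. TPM served only to name the most abundant gene of each list.

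The 8 genes and the lists were chosen with earlier results of these data known. Named besides the 8 were list genes called in any contrast, the highest by TPM of each list, Ppara, and the 5 genes most like the 8 between mice, and 1 gene that this rule names is not reported here. Alternatives were edgeR 4.0.16, other filters, a transcript length offset, fragment length or age as a term, a replicate block, the compared groups alone, and leaving out each mouse. Fragment length was the median difference of length and effective length over transcripts of at least 3000 bases. Fits were tested on simulated data whose changes were larger than those of the 8 genes, so the recovery of smaller changes was not tested. Intervals are the estimate ± 1.96 SE, and single library properties were compared with two-sided exact permutation tests, which with 4 against 4 mice cannot go below 0.0286 and with 5 against 5 below 0.00794. Pair correlations used 100000 permutations.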

Additional observations from a re-analysis of the deposited data

Results flagged for a closer look

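One result stood apart. Acadl in FLL 4 had 1278 normalized counts, while the other 4 female LL mice lay between 1077 and 1129, so its gap to the nearest mouse was 0.742 of the range of the group, above Dixon's critical value of 0.71 for 5 mice. It was the 1 value set apart among 48 groups of values examined, and chance sets apart about 1 in 20. This library had a fragment length of 247 bases, the shortest of the female LL libraries, and 3982871 counts, the fewest, and their part in the value was not tested. Over 18 mice the within-group deviations of Acadl had a Pearson r of -0.53 with fragment length, -0.50 with total counts and 0.48 with the mitochondrial share of counts. Without FLL 4 the log2 fold change of Acadl by LL genotype in females was 0.24 (DESeq2 adjusted P = 0.283).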

How the results depend on the processing

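The transcript length offset moved most values, and the cause was not tested. Under it the log2 fold changes by LL genotype became 0.085 for Acadvl, -0.25 for Hadha and -0.65 for Hadhb in males and -0.11 for Cpt1a, -0.56 for Acadm, -0.045 for Acadl, 0.019 for Acadvl and -0.16 for Bdh1 in females. Between the sexes they became -0.17 for Cpt2 and -0.72 for Hadhb in PP mice and -0.052 for Cpt2, -0.013 for Acadm, -0.051 for Acadl, 0.16 for Acadvl and 0.34 for Hadha in LL mice, and the interaction of Hadhb became 0.65. With fragment length as a term the value was -0.03029 for Bdh1 by genotype in females and -0.02047 for Acadm by sex in LL mice, with age as a term -0.053 for Cpt1a by genotype in females. The genes of the 8 called between female LL and male LL mice numbered 0 with the offset and 0 with fragment length as a term. Leaving out each mouse gave 1 to 2 called between female PP and male PP, 1 between female LL and male LL, and 0 in the comparisons by genotype and the interaction. Signs turned without single mice for values near 0, with ranges for the genotype effect of -0.084 to 0.05036 for Acadvl in males and -0.049 to 0.11 for Cpt1a in females, for sex of -0.037 to 0.088 for Cpt1a in PP mice, and, in LL mice, of -0.10 to 0.15 for Acadm, -0.091 to 0.045 for Acadvl, -0.18 to 0.02050 for Hadha and -0.10 to 0.016 for Hadhb, and for the interaction of -0.19 to 0.064 for Acadm, -0.079 to 0.032 for Acadl, -0.13 to 0.0085 for Acadvl and -0.14 to 0.062 for Bdh1.

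Same-numbered mice did not deviate together (r from -0.17 to 0.16 over 25 pairs, median 0.04), so the numbers were not read as a pairing. In each group the ages on the labels rise or stay level with the number, so the replicate block partly follows age. The replicate block changed no call of the 8 genes, with Bdh1 by sex at 0.51 in PP and 0.49 in LL mice, turned Cpt1a by sex in PP mice to -0.014, and left 0 of 8 called by genotype and in the interaction. Over all genes the calls by genotype were 31 in males and 72 in females, against 3 and 3 with edgeR, 53 and 31 with the offset, and, in females, 14 with fragment length and 44 with age. Between female LL and male LL mice they were 669 against 432 with fragment length, and in the interaction 13 against 0 with edgeR (620 at an unadjusted p below 0.05 with DESeq2) and 8 without independent filtering. Leaving out 1 mouse moved the male count by over 1.5 times without MPP 2 (20) or MLL 4 (58). It moved the female count to 39, 42, 32, 276 and 28 without FPP 1 to 5 in turn and to 36, 128 and 33 without FLL 1, FLL 2 and FLL 4, and the interaction count to 7 without FPP 2, 3 without FPP 3, 6 without MPP 2, 6 without FLL 1, 27 without FLL 3, 7 without FLL 4 and 8 without MLL 1.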
